A study of Drosophila melanogaster with 2 samples.

Results

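The cold-shock domain is an ancient fold that binds single-stranded RNA and DNA, and it is found from bacterial cold-shock proteins to the animal Y-box proteins. The members examined here are the 4 Drosophila melanogaster genes CG9705, yps, Unr and lin-28, chosen by name from the annotation as genes for proteins with this domain, out of 13945 protein-coding genes on 6 chromosome arms. The data are chromatin immunoprecipitation followed by sequencing (ChIP-seq) from whole wandering L3 larvae, males and females pooled, of a transgenic line that stably expresses CG9705 with green fluorescent protein (GFP) at its C terminus. There was 1 group of 2 biological replicates, which the labels give as separate biosamples of 1 line, and no untagged or other group. The labels give neither the promoter of the transgene nor its insertion site. They also disagree on the libraries: the free text names both as input, whereas CG9705 stands in the antibody field and another experiment is listed as the control. They are read here as the ChIP samples. All values below come from 4 peak lists: a relaxed list of 30000 peaks for each replicate, another of 30000 for the pooled replicates, and the optimal set, the 3533 best-scoring pooled peaks, which the authors kept as reproducible. A peak is given by its summit and by its rank on the authors' score, where rank 1 is the strongest. The scale of that score is not stated and the read depth is unknown, so scores are compared only within a list.

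Members of the family act mostly on RNA. CG9705, the protein that was tagged, is the fly relative of the vertebrate cold-shock proteins CARHSP1 and CSDC2. Ypsilon schachtel, the product of yps, is the Y-box protein of germline mRNA particles. Unr holds several cold-shock domains and, with Sex-lethal, represses translation of msl-2 mRNA in females, which keeps X chromosome dosage compensation off. Lin-28 joins a cold-shock domain to zinc knuckles and blocks maturation of let-7 microRNAs in worms and mammals. Vertebrate Y-box proteins were first described as binding DNA with an inverted CCAAT element.

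Sequences upstream of the genes are shown because the promoter peaks of CG9705, yps and Unr lie in them, and that of lin-28 because no peak does. Each is RefSeq Release 6 sequence of the sense strand of the named gene, 5′ to 3′, free of annotated exons. For CG9705 it is the 151 bp around the upstream summit, chr3L:16779740-16779890, which spans -360 to -210 bp from the first transcript start (negative is upstream). For yps it is chr3L:12125151-12125259 (-109 to -1 bp, minus strand), for Unr chr3L:8442382-8442493 (-112 to -1 bp, minus strand), each 75 bp out from the summit upstream and cut at the start, and for lin-28 chr3L:5654531-5654680 (-150 to -1 bp). Capitals mark matches to the elements described next.
CG9705: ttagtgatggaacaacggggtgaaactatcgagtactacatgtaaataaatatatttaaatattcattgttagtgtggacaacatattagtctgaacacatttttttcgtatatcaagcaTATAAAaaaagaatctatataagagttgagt
yps: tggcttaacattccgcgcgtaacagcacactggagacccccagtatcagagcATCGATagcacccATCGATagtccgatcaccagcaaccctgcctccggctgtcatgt
Unr: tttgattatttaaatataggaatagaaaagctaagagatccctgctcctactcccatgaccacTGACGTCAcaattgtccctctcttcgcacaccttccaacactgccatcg
lin-28: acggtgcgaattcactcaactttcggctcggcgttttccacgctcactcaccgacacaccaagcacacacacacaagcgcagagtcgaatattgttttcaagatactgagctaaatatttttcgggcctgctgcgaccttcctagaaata

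Of 6 elements searched on both strands in the 151 bp around each of the 6 member summits (CCAAT of the Y-box, the replication element TATCGATA, the promoter motif GGTCACAC, GAGAGAG of GAGA factor, the E-box CAGCTG and the TATA box TATAAA), 2 matched, each at 1 summit. TATAAA lay 45 bp from the upstream CG9705 summit on the CG9705 side, and 28.7% of all optimal windows of this length held it. CCAAT, the core of the vertebrate Y-box, lay 49 bp downstream of the intron summit of yps, and 24.7% of optimal windows held it. The other 4 elements had no match at a member summit and were held by 1.67% to 6.0% of optimal windows. A further 2 elements were chosen after these sequences were read. ATCGAT, the core of the DNA replication-related element TATCGATA, stood at -57 and -44 bp in the yps promoter, that is at 23 and 10 bp upstream of the summit. It was present at least once in 9.57% of optimal windows and at least 2 times in 1.81%. In the 150 bp upstream of all protein-coding genes it was more frequent, with at least 1 match in 17.0% and at least 2 in 3.98%. TGACGTCA, the palindrome known in animals as the cAMP response element, began at -49 bp from the Unr start and 12 bp upstream of the summit, and 7 of 3533 optimal windows (0.198%) and 0.237% of protein-coding promoters held it. The 150 bp upstream of the lin-28 start held none of the 8 elements. These matches are letters in a window and say nothing of which factor was there.

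Peaks of the optimal set were found at 3 of the 4 genes. CG9705, yps and Unr each had 2 optimal summits in the gene body or within 5 kb, and lin-28 had 0. Over all protein-coding genes 43.9% had at least 1 optimal summit in this window and 17.9% had at least 2. The windows spanned 12320 bp for CG9705, 13877 bp for yps, 20060 bp for Unr and 12704 bp for lin-28. The same 3 genes had an optimal summit within 500 bp of one of their transcript starts, as did 19.1% of protein-coding genes. With 4 members these counts are a description and carry no test.

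**Figure D1:**
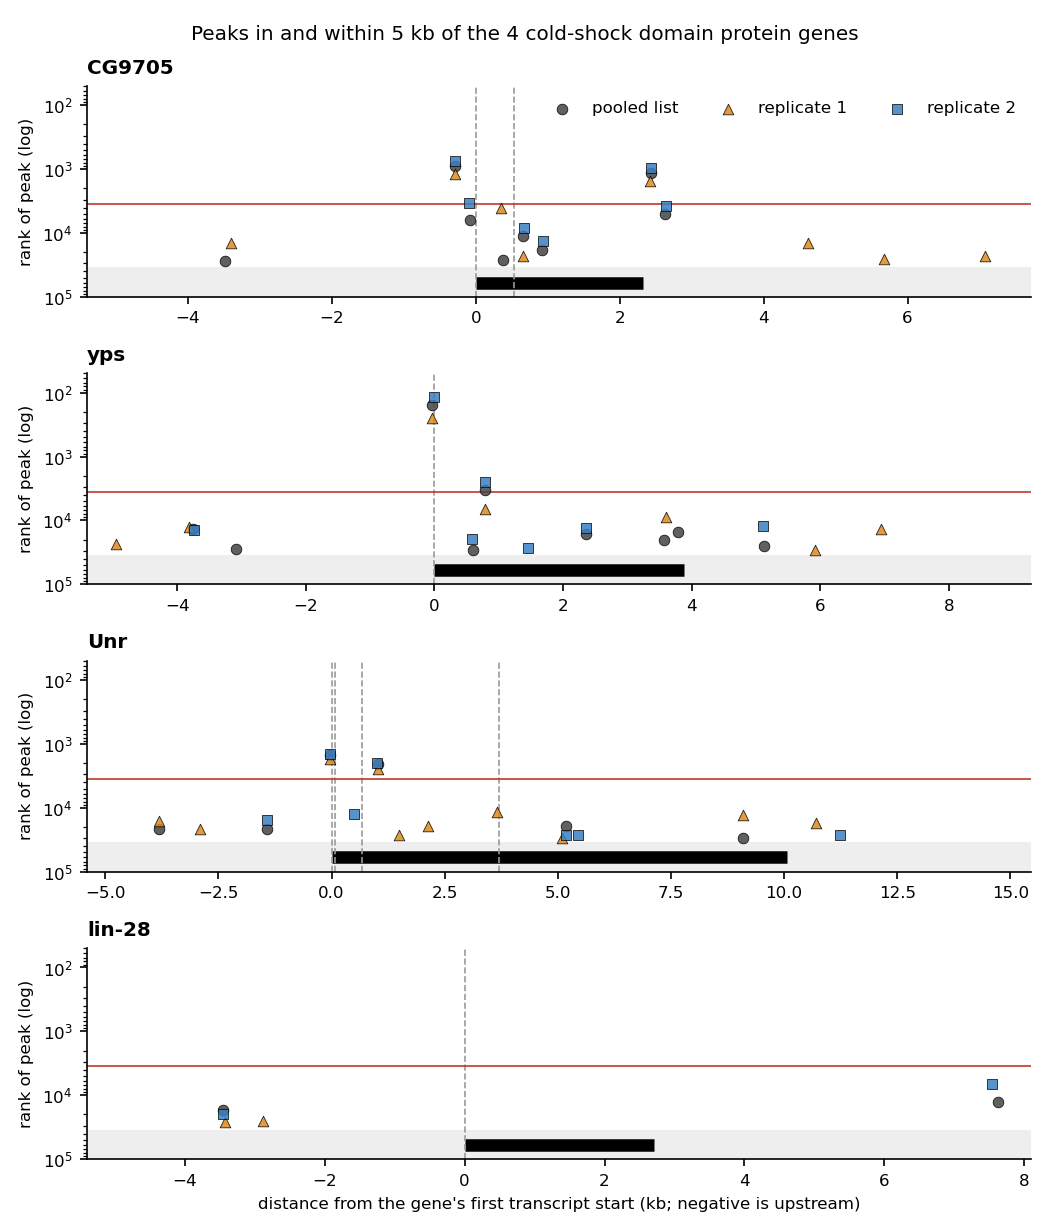
Each panel plots the rank of every peak (log axis, strongest at the top) against its distance in kb from the first transcript start of CG9705, yps, Unr or lin-28, with the pooled list as circles, replicate 1 as triangles and replicate 2 as squares. The black bar in the grey strip is the gene, dashed lines are its transcript starts, and the red line is rank 3533, the size of the optimal set. CG9705, yps and Unr each show 2 places where pooled peaks rise above the line, and lin-28 shows none.

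CG9705 (FBgn0036661, chromosome 3L, 16780100 to 16782419, plus strand) is the gene of the tagged protein itself, and both of its optimal summits lay outside the gene body, although the interval of the downstream peak ran over the 3′ end of the gene. The upstream summit lay at -285 bp from the start shared by transcripts RA and RB and at -820 bp from that of RC. It had a score of 268 and rank 883 in the optimal set, rank 1190 in replicate 1 and rank 757 in replicate 2. This summit lies in the 364 bp gap to mus302, which is transcribed in the opposite direction, and it was closer to the mus302 start (at -79 bp) than to the CG9705 start. The other summit lay 113 bp past the 3′ end of CG9705, in the 591 bp gap before CG9706, and at -478 bp from the CG9706 start. It had a score of 223 and rank 1167, with rank 1518 in replicate 1 and rank 947 in replicate 2. Both optimal peaks of CG9705 were therefore nearest to the start of a neighbour: when each peak was given only to the gene of its nearest start, 2 members, yps and Unr, remained with a promoter peak, against 13.4% of all protein-coding genes.

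A weaker pooled summit was nearer to the CG9705 start. It stood at -86 bp with rank 6287, below the optimal set, and replicate 2 had a matching summit at -91 bp with rank 3447. Replicate 1 had no separate summit there, and its nearest was the stronger one at -282 bp. Inside the gene, the pooled list had summits at 377 bp in the 5′ UTR (rank 26681), at 662 bp in coding sequence (rank 11353) and at 916 bp in an intron (rank 18520). The coding summit lay 127 bp downstream of the RC start and recurred in replicate 1 (rank 22589) and in replicate 2 (rank 8394). The 5′ UTR summit had a counterpart in replicate 1, at 345 bp with rank 4002, and none in replicate 2.

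The promoter peak of yps (FBgn0022959, 3L, 12121274 to 12125150, minus strand) was the strongest of the family. Its summit lay at -34 bp from the single annotated start, which transcripts RA and RB share, and no other gene had a start within 500 bp of it. It had a score of 628 and rank 157 in the optimal set, rank 254 in replicate 1 and rank 115 in replicate 2. Among the 2661 genes with an optimal summit at a start, yps took place 154 by the score of its best promoter peak, above 94.2% of them. CG9705 took place 763 and Unr place 1242 in the same order, above 71.3% and 53.3% of these genes. The place of CG9705 rests on the summit at -285 bp, which was closer to the mus302 start. The weaker pooled summit at -86 bp from the CG9705 start scored 62.2.

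A second optimal summit of yps lay in its first intron, at 790 bp from the start and 526 bp downstream of the coding start. Its score of 103 and rank 3299 put it near the end of the optimal set, where the lowest score was 98.4. It ranked 2504 in replicate 2 but 6697 in replicate 1, outside the 3533 best of that replicate, so with replicate 1 alone yps kept 1 of its 2 peaks. Within the pooled list the promoter score was 6.09 times the intron score, within replicate 1 it was 8.12 times and within replicate 2 it was 5.39 times. The weaker pooled peaks of yps included 2 in its 3′ UTR, at ranks 15358 and 20144, and another in the intron, at 2356 bp and rank 16097. The intron peak at 2356 bp had a counterpart in replicate 2 (rank 13296) and none in replicate 1.

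Unr (FBgn0263352, 3L, 8432322 to 8442381, minus strand) has 4 annotated starts, and its optimal peaks lay at the upstream ones. The stronger summit was at -37 bp from the RA start and -103 bp from the RC start, with a score of 188 and rank 1486, rank 1724 in replicate 1 and rank 1417 in replicate 2. The other was 1057 bp away, at 1020 bp from the RA start and 346 bp downstream of the start shared by RB and RE, in 5′ UTR sequence. It had a score of 151 and rank 2028, with rank 2485 in replicate 1 and rank 1954 in replicate 2. In transcripts RB and RE this is the first exon and in RA and RC the second. The scores of the upstream and the UTR summit were close, at a ratio of 1.25 in the pooled list, 1.30 in replicate 1 and 1.25 in replicate 2. The remaining start, of RD, had no optimal summit within 500 bp, and none in the pooled list, where the nearest lay 1487 bp downstream. Replicate 1 alone had a weak summit at -37 bp from the RD start, with rank 11721.

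For lin-28 (FBgn0035626, 3L, 5654681 to 5657384, plus strand) no list had a summit in the gene body or within 500 bp of its single start. The nearest optimal summit lay at -16929 bp from the start. The pooled list had 2 summits in the window, both outside lin-28 and towards the ends of that window. The upstream one, at -3451 bp from the start, was in the 3′ UTR of Blimp-1, an ecdysone-inducible transcriptional repressor, and ranked 16825, with summits at -3429 bp (rank 26404) in replicate 1 and -3456 bp (rank 19373) in replicate 2. The downstream one, 4931 bp past the end of lin-28, was at -68 bp from the start of Sse, the separase gene, inside an intron of sif, and ranked 12583 in the pool. Its closest summit in replicate 2 ranked 6785, and replicate 1 had none in the window there. At a gene start, a pooled summit of any rank within 500 bp was found for CG9705, yps and Unr and for 53.9% of all protein-coding genes, so lin-28 was among the large remainder without one.

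**Figure D2:**
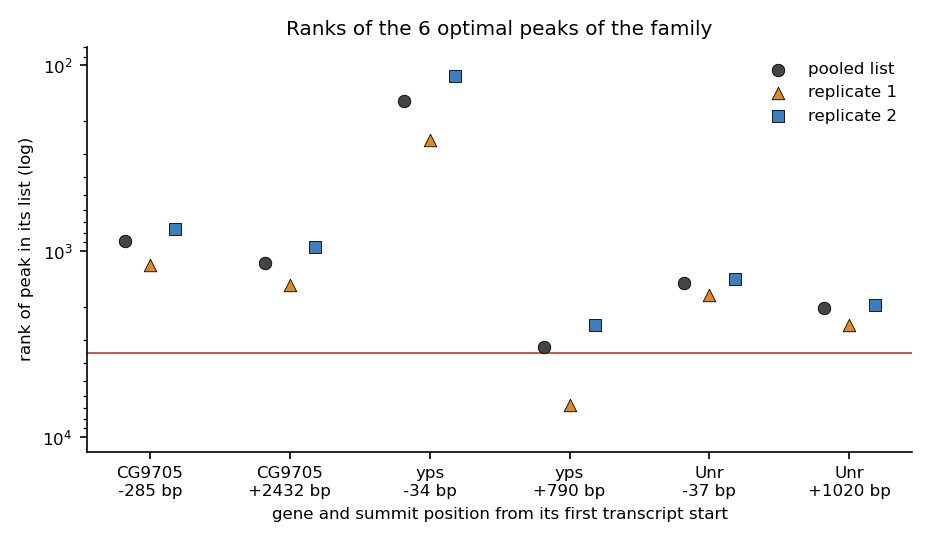
The rank of each of the 6 optimal peaks is plotted on a log axis, strongest at the top, for the pooled list (circles), replicate 1 (triangles) and replicate 2 (squares), by gene and summit position from the first transcript start. The red line is rank 3533. The promoter peak of yps stands highest, with ranks of 157, 254 and 115, and the intron peak of yps in replicate 1, at 6697, is the point below the line.

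Positions recurred closely between the replicates. All 6 optimal summits had a summit within 100 bp in both replicate lists, and the largest shift from the pooled summit was 20 bp, at the yps promoter in replicate 2. Of the 6 peaks, 5 (83.3%) were found again among the 3533 best of both replicates, and the exception was the intron peak of yps. Every one of the 6 ranked higher in replicate 2 than in replicate 1. The optimal set was drawn from these replicates, so this recurrence is not independent of the choice of peaks. The same share over all 3533 optimal peaks is not given here, so the recurrence does not set these 6 peaks apart. Below the optimal set, 1 of 6 pooled peaks of CG9705, 1 of 7 of yps, 1 of 4 of Unr and 1 of 2 of lin-28 had a summit within 100 bp in both replicates.

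**Figure D3:**
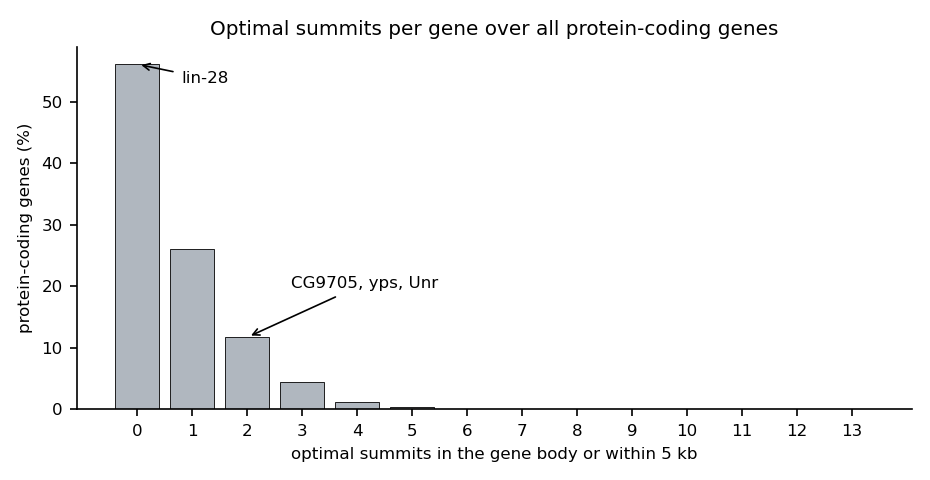
Bars give the percentage of 13945 protein-coding genes with each number of optimal summits in the gene body or within 5 kb. lin-28 is among the 56.1% with 0, and CG9705, yps and Unr are among the 11.7% with exactly 2.

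The number of summits in the relaxed lists, optimal peaks included, also differed within the family. The relaxed pooled list had 3 summits in the body of CG9705 and 5 in that of yps, both 1.29 per kb, above 97.6% and 97.5% of protein-coding genes. The body of Unr held 3 (0.298 per kb, above 71.8%) and that of lin-28 held 0, as did 59.9% of genes. With 5 kb on either side, pooled density stood above 89.9% of genes for both CG9705 and yps. For Unr it stood above 53.4% and for lin-28 above 32.0%. In replicate 1 alone the gene bodies held 2, 2, 6 and 0 summits for CG9705, yps, Unr and lin-28, and in replicate 2 they held 2, 4, 4 and 0. By density in replicate 1, CG9705 stood above 92.7% of genes, yps above 81.2% and Unr above 84.7%. In replicate 2 these shares were 92.9%, 95.7% and 76.0%. With 50 kb on either side the pooled list held 49 summits around CG9705, 57 around yps, 29 around Unr and 23 around lin-28, against a median of 29 over all genes. In replicate 1 these regions held 49 summits around CG9705 and 54 around yps, and in replicate 2 they held 45 and 46, so the gap between both genes was 1 summit in replicate 2. Whether the transgenic copy of CG9705 adds to the peaks at the endogenous gene was not tested.

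The proteins of this family act with other mRNA regulators, and 25 genes for such partners and targets were examined, a list written with earlier results of these data known. By symbol 24 matched the annotation, and let-7-C matched lncRNA:let7C through an older name. Of the 25, 12 had an optimal summit within 500 bp of a transcript start. Among the 22 protein-coding genes of the list 11 had one, beside 19.1% of all protein-coding genes, and 14 had one in the gene body or within 5 kb, beside 43.9%. The list was not chosen independently of the data, and no test was made.

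The highest rank among these promoter peaks was that of tral, for the mRNP protein Trailer hitch (rank 496, at -193 bp), a peak that also lay at a start of sti and of a noncoding RNA gene. Next were gw, for the microRNA effector GW182 (rank 593, at -117 bp), and orb, a regulator of cytoplasmic polyadenylation (rank 699, at -214 bp, shared with Cdc16). AGO1, for the microRNA Argonaute, ranked 1529 (at -117 bp, shared with CG33155 and mRpL53), pAbp, for poly(A)-binding protein, 1706 (at 459 bp), and twin, for the CCR4 deadenylase, 1998 (at -80 bp, shared with cav and in an intron of it). Among genes linked to Unr and dosage compensation, Sxl, the sex-determination switch that partners Unr, ranked 1278 (at 344 bp, in an intron) and msl-1 ranked 2844 (at -107 bp). Genes linked to lin-28 were InR, for the insulin receptor (rank 2043, at -92 bp), and let-7-C, the primary transcript of the let-7 cluster (rank 2750, at 499 bp, the edge of the window). The RNA-binding protein genes Syp and how ranked 2495 (at -217 bp) and 3429 (at -197 bp). Of these 12 strongest summits 9 lay upstream of the nearest start of their gene and 3 downstream. The best 3533 of replicate 1 had a promoter summit for all of these but msl-1, and those of replicate 2 for all but how and let-7-C.

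The other 13 genes had no optimal promoter summit: exu, me31B, cup, eIF4E1, BicC, Imp, Not1, msl-2, msl-3, mof, mle and the noncoding lncRNA:roX1 and lncRNA:roX2. For 11 of them the pooled list had a weaker summit within 500 bp of a start, at ranks from 3653 for Not1 to 26097 for msl-2, the mRNA that Unr represses. The exceptions were msl-3 and mle, with 0 pooled summits there. The 11 include both noncoding genes. Over all protein-coding genes 53.9% had a pooled summit of any rank, optimal ones included, within 500 bp of a start. The 13 genes were set apart by having no optimal one, so this share is not a like comparison for them. Genes of the dosage compensation machinery (msl-1, msl-2, msl-3, mof, mle and both roX RNAs) had 1 optimal promoter peak, that of msl-1, which replicate 1 alone did not rank among its best 3533. That is 1 of 5 protein-coding genes, a share near the 19.1% of all protein-coding genes. Within 5 kb, mof and lncRNA:roX2 each had 2 optimal summits away from their starts, and msl-2, msl-3, mle and lncRNA:roX1 had 0. At least 2 in this window were found for 17.9% of all protein-coding genes.

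**Figure D4:**
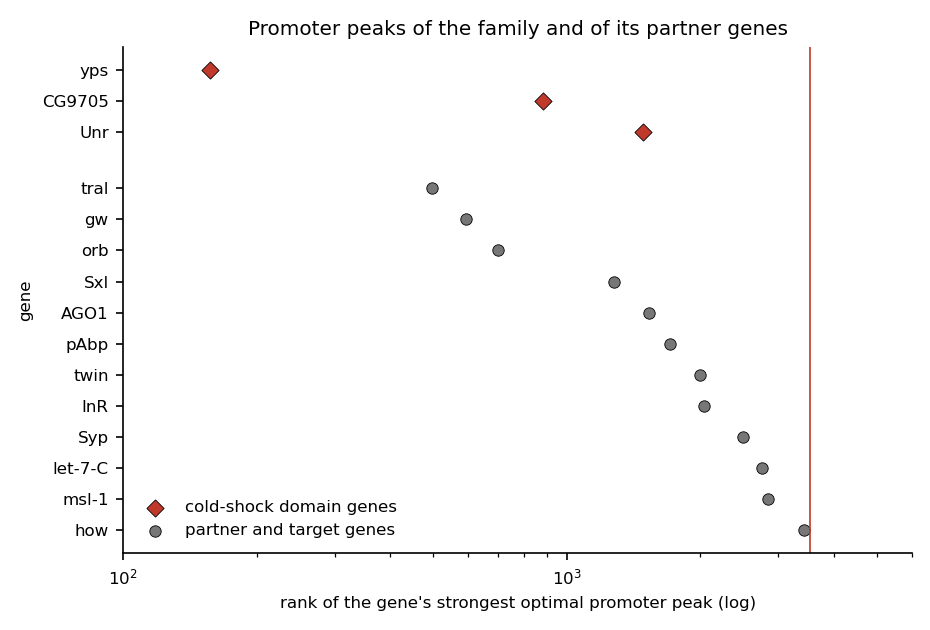
The rank of each gene's strongest optimal promoter peak is plotted on a log axis, with the cold-shock domain genes as diamonds above and the 12 partner and target genes as circles below, and the red line at rank 3533. yps (157) lies above all of the listed partners, CG9705 (883) falls between orb (699) and Sxl (1278), and Unr (1486) between Sxl and AGO1 (1529). The peak plotted for CG9705 is the one closer to the mus302 start.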

How the data were processed

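Per the deposited file notes, the authors derived each relaxed list from the alignment of the ChIP library or libraries and 1 control alignment on dm6, in narrowPeak format, and the optimal set from the 3 relaxed lists by irreproducible discovery rate. Neither the aligner nor the peak caller nor the threshold is stated in those notes or the labels. The deposited score (column 7) has no stated scale and gave the ranks. The deposited −log10 q value ties at its highest value for 2929 pooled peaks and ranked nothing. The summit offset is another deposited column, used for positions. The labels give sonication to 200 to 800 bp.

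Genes and starts came from Ensembl release 115, without transposable elements, and sequence from RefSeq Release 6, the assembly of dm6. No peak ran past an arm end. A summit counted for every gene whose window or start it reached. Peaks with summits within 100 bp were taken as the same. With 1 group of 2 samples, no comparison had a test, and each replicate's own list gives the spread. Assignment was checked on made-up genes with known answers. Named genes were the members, genes with a start within 500 bp of a member's optimal summit, flanking genes, and the partner list. The members, windows and lists were chosen with earlier results of these data known, and the weaker peaks, further neighbours and 2 sequence elements after their values were seen. The alternatives were other windows and distances, stricter and looser lists, each replicate alone, RefSeq gene models, nearest start only and other matching rules. Python 3.11.15, numpy 2.4.6, pandas 2.3.3 and matplotlib 3.10.9 were used.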

Additional observations from a re-analysis of the deposited data

How the results depend on the processing

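None of the 20 alternatives to the family's counts moved one by more than 1.5 times. For a count of 3 members, 2 and 4 both fall within this limit, so a change of 1 member could not register. The count of members with an optimal summit in the window was 3 in each setting but the gene body alone (2) and the whole relaxed list (4), and 3 in each replicate alone, with RefSeq models giving the same gene spans. The share of all protein-coding genes changed far more. It was 9.47% for the gene body, 57.4% within 10 kb and 82.4% for the whole relaxed list. The count with a promoter summit was 2 within 250 bp and with the nearest start only, where CG9705 dropped out, and 3 otherwise, each replicate alone included. The share of all protein-coding genes was 15.6% within 250 bp, 13.4% with the nearest start only and 53.9% for the whole relaxed list. With reciprocal overlap of at least 50%, 4 of 6 peaks (66.7%) were found again in both replicates. For single genes, 7 of 28 alternatives moved the number of optimal summits. In the gene body alone CG9705 had 0 and yps and Unr 1 each, in the better-scoring 1766 optimal peaks yps and Unr had 1 each, yps had 1 in replicate 1 alone, and within 10 kb yps had 5. lin-28 had 0 in all of these. Read depth is unknown, so the absence of a peak at lin-28 means only that none was listed.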

Other observations

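Between 5 and 10 kb from the members lay a further 5 optimal peaks, all nearer to other genes. Around yps these were 2 peaks before the start of vers (ranks 1010 and 2834, at -797 and -4491 bp) and 1 at the start of DEF8 (rank 1685, at -61 bp). Near Unr a peak lay 263 bp downstream of a start of Gug, the fly Atrophin co-repressor (rank 3301), and near CG9705 a peak was in an intron of Nrt, for the adhesion protein Neurotactin (rank 3308). The gene bodies of all 8 flanking protein-coding genes but Blimp-1 were free of optimal summits, and Blimp-1 held 2. Over all protein-coding genes 90.5% had no optimal summit in the gene body. Weaker pooled peaks lay at -489 bp from Lsp2, a larval serum protein gene of the fat body (rank 13485), and at 16 bp from the start of CG11560, the gene downstream of yps (rank 25573).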
